A study of Mus musculus with 3 samples.

Results

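Malat1, Neat1 and the mRNAs of the paraspeckle proteins Sfpq, Nono and Pspc1 were followed through RNA recovered by RIA-seq from mouse embryonic stem (ES) cells. All rows whose gene symbol was one of these 5 names were taken, out of 26887 genes listed in at least 1 library, and all 5 genes had counts in all 3 libraries. RIA-seq sequences the RNA that comes down with a chosen RNA when antisense oligonucleotides against it are captured from cross-linked cells. E14 ES cells of strain 129/Ola were fixed with 1% glutaraldehyde for 10 min, the lysate was sonicated and incubated overnight with oligonucleotides at 37 °C, and RNA was recovered on streptavidin beads and treated with DNase. The 3 libraries used oligonucleotides against Malat1, against the mRNA of Tfrc (the transferrin receptor), or against the mRNA of Actb (beta-actin), the last being the control. They are called the Malat1, Tfrc and Actb libraries here, and the last also the control; a fold such as Malat1 over control divides the share of a gene in the first by its share in the second.

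There was 1 library per condition. No difference between libraries therefore had a replicate check, and every interval below is a 95% interval that covers counting error only. The control is itself a capture of an RNA and not an input, so that a fold says how the share of a gene compared with its share in another capture. The libraries held 10405209 counts (the Actb library), 10078439 counts (the Malat1 library) and 14553941 counts (the Tfrc library), and a gene with no read could lie at up to 0.288, 0.298 and 0.206 counts per 1000000 counts of the library (CPM). One gene, Lars2, took between 17.0% and 32.0% of all counts, with the highest share in the Actb library. All 8 ES cell markers had at least 1244 counts in every library and summed to 3037 to 4248 CPM, whereas 6 fibroblast markers summed to 18.8 to 21.7 CPM, with Lum at 0 throughout and S100a4 and Dcn at 0 in the control. The 5 primitive endoderm markers summed to 8.36 to 17.8 CPM, and the 3 neural markers to 23.3 to 29.8 with Map2 at 0; the part of these low levels in the folds was not tested.

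Malat1 and Neat1 are neighbouring genes for long noncoding RNAs found mainly in the nucleus. The authors state that part of the Malat1 RNA of mouse ES cells lies in the cytoplasm. Malat1 RNA collects in nuclear speckles, which store splicing factors, and Neat1 RNA is the scaffold of paraspeckles, bodies that lie beside the speckles and hold back RNAs and proteins. SFPQ, NONO and PSPC1 are related RNA-binding proteins that pair with each other, bind Neat1 RNA and help to build the paraspeckle. The counts below are of the mRNAs of these proteins and do not report on the proteins.

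In the annotation of the build NCBIM37, Malat1 (ENSMUSG00000092341) lies on the minus strand at chr19:5795690-5802671 and Neat1 (ENSMUSG00000092274) on the same strand at chr19:5824708-5845478. The 3′ end of Neat1 lies 22036 bases before the 5′ end of Malat1. Each is covered by 1 merged exon, of 6982 bases for Malat1 and 20771 bases for Neat1, so that neither has a stretch that is only intronic. Sfpq (ENSMUSG00000028820) lies at chr4:126698568-126714257, Nono (ENSMUSG00000031311) at chrX:98624657-98643930, both on the plus strand, and Pspc1 (ENSMUSG00000021938) at chr14:57341278-57397153 on the minus strand. Their merged exons cover 4743, 4375 and 4003 bases, and what lies between them covers 10947 bases in Sfpq, 14899 in Nono and 51873 in Pspc1.

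The longest exact runs that Malat1 and Neat1 share are shown here. They bear on what could be counted for either gene or be paired between them. With mismatches allowed, these genes had 4 alignments, the longest of 147 bases at 91.8% identity on the same strand. The sequences of the antisense oligonucleotides were not found in the sources used here. Capture of Neat1 by those against Malat1 was not tested. Near their 3′ ends both RNAs carry a U-rich stretch of the kind that folds with the A-rich tail into a triple helix and protects the end, as is known for both RNAs. Written as DNA, 5′ to 3′ on the transcribed strand, the stretches at chr19:5796011-5796040 and chr19:5824744-5824773 were as follows, with the longest run that the last 500 bases of the genes have in common, of 16 bases, in capitals.
Malat1: ttgttttCTCAGGTTTTGCTTTTtggcctt
Neat1: ggccgcgCTCAGGTTTTGCTTTTcaccttt
The longer runs belong to copies of the B1 repeat, a short interspersed element found throughout the mouse genome. The longest run shared on the same strand over the whole genes, at chr19:5802042-5802070 in Malat1 and chr19:5834199-5834227 in Neat1, had 29 bases, all in capitals.
Malat1 and Neat1: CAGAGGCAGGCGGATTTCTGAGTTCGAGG
The longest run of Neat1 complementary to Malat1 had 30 bases, at chr19:5801997-5802026 in Malat1 and chr19:5825861-5825890 in Neat1. The Neat1 run also occurred in Sfpq, at chr4:126703779-126703808.
Malat1: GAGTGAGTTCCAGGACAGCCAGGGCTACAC
Neat1 and Sfpq: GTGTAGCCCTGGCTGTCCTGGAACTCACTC
These runs were not particular to the 5 genes. Of 23522 genes with annotated exons, 116 (0.493%) held the run shared by Malat1 and Neat1, and 154 (0.655%) held the complement of the Malat1 run. In Sfpq the run was part of a complementary stretch of 61 bases in the exons of 2 noncoding transcripts of the gene, and the whole of it was held by 39 genes. Nono and Pspc1 had no complementary run to Malat1 longer than 13 bases.

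Malat1 was the most counted of the 5 RNAs in every library. It had 19081 counts in the Actb library, 107409 in the Malat1 library and 102470 in the Tfrc library, which is 1834, 10657 and 7041 CPM. It was the 22nd most counted gene in the control, the third in the library of its own oligonucleotides and the eighth in the Tfrc library. The share of Malat1 was 5.81-fold higher in the Malat1 library than in the control (5.72 to 5.90), a fold above that of 99.0% of the 14572 genes that reached 10 counts in each. It was also 3.84-fold higher in the Tfrc library than in the control (3.78 to 3.90), above 97.0% of 14691 genes, although Malat1 was not the target there. The targeted RNA was thus higher in both other libraries than in the control, and the 2 folds share the control library. These folds compare shares between captures and do not measure how much of an RNA the cells held.

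Neat1, which was not a target in any library, followed Malat1 in the order of the libraries. It had 564, 3043 and 2178 counts in the Actb, Malat1 and Tfrc libraries, or 54.2, 302 and 149.7 CPM. Its share was 5.57-fold higher in the Malat1 library than in the control (5.09 to 6.09), above 98.8% of genes, and 2.76-fold higher in the Tfrc library than in the control (2.52 to 3.03), above 89.2% of genes. Its place among all genes went from 1928 in the control to 347 in the Malat1 library and 752 in the Tfrc library. The counts of Neat1 do not separate its long RNA, which builds paraspeckles, from the short RNA that starts at the same place.

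**Figure D1:**
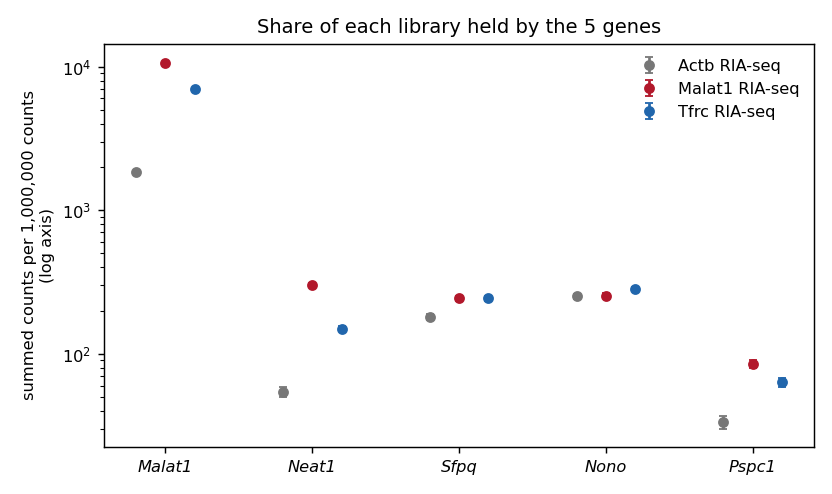
CPM of each of the 5 genes (log axis) in the Actb, Malat1 and Tfrc libraries, 1 library each, with bars for the 95% interval from counting. Malat1 stood at 1834, 10657 and 7041 CPM and Neat1 at 54.2, 302 and 149.7, whereas Nono stayed between 251 and 282.

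These folds have to be read against all genes, since most genes had a larger share outside the control. Over the 14572 genes, the median fold of the Malat1 library over the control was 1.82, with 88.7% of genes above 1 and 42.1% at 2 or more. Of the 5 genes, 5 were above 1 and 3 (Malat1, Neat1 and Pspc1) were at 2 or more, where Malat1 was itself the target of the capture. For the Tfrc library over the control the median was 1.56, with 87.2% of genes above 1 and 28.6% at 2 or more, against 5 and 2 (Malat1 and Neat1) of the 5 genes. Relative to the median gene, Malat1 was 3.19-fold and Neat1 3.06-fold higher in the Malat1 library, and 2.46-fold and 1.77-fold higher in the Tfrc library. Scaled by the median ratio, the folds were 3.20 for Malat1, 3.06 for Neat1 and 1.40 for Pspc1 in the Malat1 library, and 2.43, 1.75 and 1.19 in the Tfrc library. The ranks do not depend on how the libraries are scaled.

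Genes with 1 merged exon, as Malat1 and Neat1 have, are 1 comparison for these RNAs. The 1270 tested genes with 1 merged exon had a median fold of 1.19 in the Malat1 library over the control, with 23.2% at 2 or more, against a median of 1.86 and 43.7% for 13124 genes with introns. In the Tfrc library over the control the medians were 1.05 (13.4% of 1317 genes at 2 or more) and 1.60 (29.8% of 13192 genes). Malat1 and Neat1 lay above both medians in both comparisons. The lincRNA and processed transcript genes, the class in which both are annotated, had higher medians. These were 2.60 in the Malat1 library and 2.14 in the Tfrc library, as given further below.

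**Figure D2:**
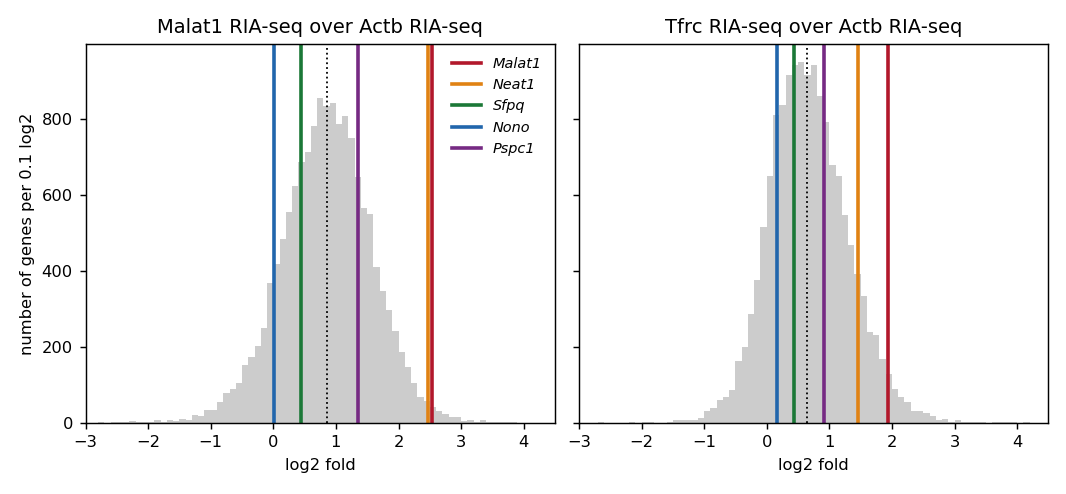
Distribution of folds over all tested genes (log2 axis) for the Malat1 library over the control and for the Tfrc library over the control, with solid lines at the 5 genes and a dotted line at the median gene. Malat1 (5.81) and Neat1 (5.57) lie in the upper tail on the Malat1 side, Pspc1 (2.55) lies above the median gene at 1.82, and Sfpq (1.36) and Nono (1.01) lie below it.

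Set directly against each other, the Malat1 and Tfrc libraries differed more for Neat1 than for Malat1. The share of Neat1 was 2.02-fold higher in the Malat1 library than in the Tfrc library (1.91 to 2.13), above 95.8% of 16430 genes, and that of Malat1 was 1.51-fold higher (1.50 to 1.53), above 83.6% of genes. The median gene was 1.15-fold higher, with 67.9% of genes above 1 and 4.35% at 2 or more. Of the 5 genes, 4 were above 1, among them Malat1 as the target of the Malat1 library, and Neat1 alone was at 2 or more.

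The ratio of Neat1 to Malat1 counts within a library does not depend on scaling. There were 0.0296 Neat1 counts per Malat1 count in the Actb library, 0.0283 in the Malat1 library and 0.0213 in the Tfrc library. From the control to the Malat1 library the ratio changed 0.958-fold, with an interval from 0.875 to 1.05 that includes 1. From the control to the Tfrc library it changed 0.719-fold (0.655 to 0.790), and from the Tfrc library to the Malat1 library 1.33-fold (1.26 to 1.41). Neat1 was thus low relative to Malat1 in the Tfrc library, and the other two libraries could not be told apart by this ratio.

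The mRNAs of the 3 proteins moved less than the noncoding RNAs, and not alike. Sfpq codes for the splicing factor proline- and glutamine-rich, a protein that paraspeckles need to form. It had 1872 counts in the Actb library, 2461 in the Malat1 library and 3534 in the Tfrc library, or 179.9, 244 and 243 CPM. Its share was 1.36-fold higher in the Malat1 library (1.28 to 1.44) and 1.35-fold higher in the Tfrc library (1.28 to 1.43) than in the control. Both folds were below those of most genes, with 27.6% and 36.7% of genes lower. With the libraries scaled by the median ratio over genes the direction turned, to 0.747-fold and 0.854-fold. Between the Malat1 and Tfrc libraries, Sfpq differed 1.01-fold (0.955 to 1.06; chi-square test of the 2 libraries, Benjamini-Hochberg adjusted p = 0.882).

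Nono codes for the non-POU domain-containing octamer-binding protein, a partner of SFPQ. It had 2609, 2557 and 4101 counts, or 251, 254 and 282 CPM, in the Actb, Malat1 and Tfrc libraries. Its fold in the Malat1 library over the control was 1.01 (0.958 to 1.07), which the chi-square test of the 2 libraries did not tell from 1 (adjusted p = 0.706), and 11.6% of genes had a lower fold. The fold in the Tfrc library over the control was 1.12 (1.07 to 1.18), with 21.1% of genes lower, and under scaling by the median ratio both fell below 1, to 0.557 and 0.711. Nono had a smaller share in the Malat1 library than in the Tfrc library, at 0.900-fold (0.857 to 0.946), and this direction held under every scaling tried. Sfpq was also lower there when scaled by the median ratio (0.875), by the 75th percentile (0.782) or without the most counted genes (0.872). A processed copy, the pseudogene Gm8806 on chromosome X, matches Nono at 96.7% over 658 bases, so that reads could be shared between them. It was listed with 13, 11 and 3 counts in the Actb, Malat1 and Tfrc libraries.

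Pspc1, the gene of paraspeckle component 1, had the largest fold of the 3. It had 348, 859 and 918 counts, or 33.4, 85.2 and 63.1 CPM. Its share was 2.55-fold higher in the Malat1 library than in the control (2.25 to 2.89), with 76.2% of genes lower, and 1.89-fold higher in the Tfrc library (1.67 to 2.13), with 67.1% lower. Both folds lay above the median gene. Scaled by the median ratio they were 1.40 and 1.19. The Malat1 library was 1.35-fold above the Tfrc library for Pspc1 (1.23 to 1.48), but with scaling by the 75th percentile the fold was 1.05 and the chi-square test of the 2 libraries no longer told it from 1 (unadjusted p = 0.295), as with Genome counts over the Genome total (1.13, unadjusted p = 0.0733).

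Ratios among the 3 mRNAs within a library gave the same order without any scaling. There was 0.133 Pspc1 count per Nono count in the control, 0.336 in the Malat1 library and 0.224 in the Tfrc library, a change of 2.52-fold (2.20 to 2.89) and 1.68-fold (1.47 to 1.92) from the control. The ratio of Sfpq to Nono went from 0.718 in the control to 0.962 in the Malat1 library and 0.862 in the Tfrc library, a change of 1.34-fold (1.24 to 1.45) and 1.20-fold (1.11 to 1.29). Relative to Sfpq, Pspc1 was 1.88-fold (1.64 to 2.16) and 1.40-fold (1.22 to 1.60) higher in the Malat1 and Tfrc libraries than in the control. Without the Genome rows described next, the ratio of Pspc1 to Nono was 0.104 in the control, 0.162 in the Malat1 library and 0.114 in the Tfrc library. That of Pspc1 to Sfpq was then 0.154, 0.185 and 0.152, where the intervals of the control (0.135 to 0.175) and the Tfrc library (0.138 to 0.168) overlap.

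Up to here the counts of a gene were summed over its rows. The files list a gene under its Ensembl identifier, under the name Genome, or under both. What sets a read apart as Genome is not given in the sources used here, and the labels do not say whether such reads lie in introns. Genome counts were 5.25% of the control library, 19.04% of the Malat1 library and 15.1% of the Tfrc library. Malat1 and Neat1 had between 2 and 22 Genome counts in any library, and Nono between 17 and 92, so that their summed folds hardly depend on these rows.

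Of the 3 mRNA genes, Pspc1 had the largest share of Genome counts. Its Genome counts were 78, 454 and 462 in the Actb, Malat1 and Tfrc libraries, beside 270, 405 and 456 Ensembl-ID counts. The Genome share of Pspc1 was thus 22.4% in the control, 52.9% in the Malat1 library and 50.3% in the Tfrc library. The median share over 7475 genes was 17.6%, 34.7% and 31.2%, so that Pspc1 lay above the median gene in each library. Sfpq had shares of 6.09%, 11.2% and 15.1%, and Nono 0.652%, 2.11% and 2.24%, both below the median gene.

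**Figure D3:**
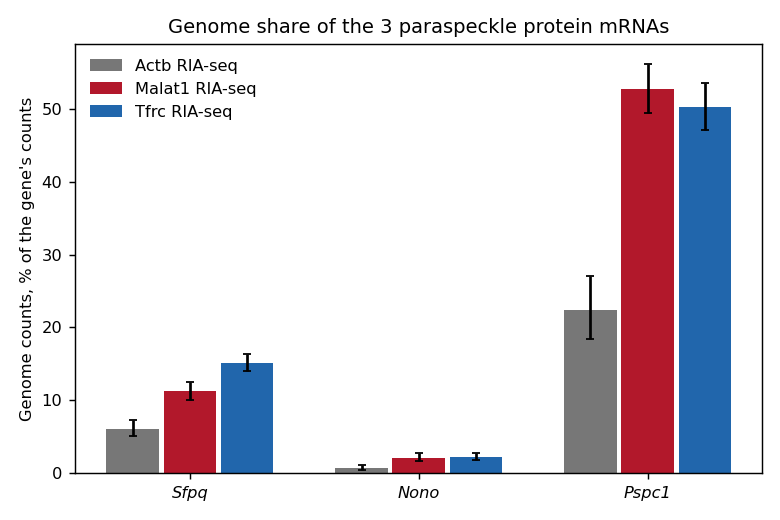
Share of the counts of Sfpq, Nono and Pspc1 listed as Genome, in percent, in the 3 libraries, with bars for the share and lines for its 95% Wilson interval. Pspc1 went from 22.4% in the Actb library to 52.9% in the Malat1 library and 50.3% in the Tfrc library, while Nono stayed at or under 2.24%.

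Counted by Ensembl-ID rows, the 3 mRNAs differed less between libraries. In the Malat1 library over the control the Ensembl-ID fold of Pspc1 was 1.55 (1.33 to 1.81), that of Sfpq 1.28 (1.21 to 1.37) and that of Nono 0.997 (0.944 to 1.05), where the median of 13195 genes was 1.41 and 24% were at 2 or more. None of the 3 mRNAs reached 2 on this count, while Malat1 (5.81) and Neat1 (5.57) kept their folds. Counted by Genome rows, the folds were 6.01 for Pspc1 (4.73 to 7.64), 2.50 for Sfpq (2.01 to 3.11) and 3.28 for Nono (1.90 to 5.66). All 3 were at 2 or more, as were 88.6% of the 8297 genes tested on this count, whose median was 3.60. Pspc1 was above 92.8% of these genes, whereas Sfpq and Nono were below their median.

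In the Tfrc library over the control the 3 mRNAs again differed less on Ensembl-ID rows than on Genome rows. The Ensembl-ID folds were 1.21 for Pspc1 (1.04 to 1.40), 1.22 for Sfpq (1.15 to 1.29) and 1.11 for Nono (1.05 to 1.16), and the Genome folds were 4.23 for Pspc1 (3.33 to 5.38), 3.36 for Sfpq (2.74 to 4.11) and 3.87 for Nono (2.31 to 6.49). All 3 Ensembl-ID folds were below the median gene, with 44.6%, 46.0% and 34.2% of 13391 genes lower, and all 3 Genome folds were above it, with 88.5%, 68.8% and 82.3% of 8344 genes lower. Of all genes, 14.1% were at 2 or more on Ensembl-ID rows and 79.6% on Genome rows. The Genome fold divided by the Ensembl-ID fold of the same gene was 3.88 for Pspc1 (2.92 to 5.16), 3.29 for Nono (1.90 to 5.69) and 1.95 for Sfpq (1.55 to 2.44) in the Malat1 library, where the median gene had 2.51. In the Tfrc library it was 3.51 (2.64 to 4.66), 3.50 (2.08 to 5.88) and 2.75 (2.23 to 3.40), where the median gene had 2.19. Between the Malat1 and Tfrc libraries the Genome-to-Ensembl ratio of Sfpq was 0.708-fold (0.606 to 0.827), and for Pspc1 (0.918 to 1.33) and Nono (0.669 to 1.32) the interval of the same value included 1.

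Scaled by length, the 5 RNAs kept nearly 1 order across the libraries. Malat1 had 263, 1526 and 1008 Ensembl-ID CPM per kilobase of exon in the Actb, Malat1 and Tfrc libraries. Nono followed with 56.9, 56.8 and 63.0, then Sfpq with 35.6, 45.7 and 43.4. Pspc1 had 6.48, 10.0 and 7.83, and Neat1 2.60, 14.5 and 7.19. Neat1 was lowest in the control, where Pspc1 was 2.49-fold above it (2.16 to 2.88). In the Malat1 library Neat1 passed Pspc1, at 1.44-fold above it (1.30 to 1.60), and in the Tfrc library the pair did not differ beyond the counting error (1.09-fold, 0.984 to 1.20). The whole length of Neat1 was used, which sets its level low where reads come from the short RNA.

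The next question was whether the mRNAs of other paraspeckle proteins stood apart. A list of 25 genes was drawn up from knowledge of the proteins found in paraspeckles, without the 5 genes above, and all 25 were counted. In the Malat1 library over the control, 25 of 25 were above 1 and 3 were at 2 or more (88.7% and 42.1% of all genes), and the median fold was 1.55, where that of all genes was 1.82. The 3 were Rbmx at 4.90 (3.40 to 7.05), Ewsr1 at 2.57 (2.43 to 2.71) and Rbm14 at 2.51 (2.34 to 2.68). Rbmx, a nuclear ribonucleoprotein gene, rests on 35 counts in the control and 166 in the Malat1 library, and since it has retrogene copies its counts are uncertain. RBM14 is needed for paraspeckles to form, and 2084 of its 2861 counts in the Malat1 library were listed as Genome. EWSR1 is an RNA-binding protein related to TAF15, and Ewsr1 had 1918 counts in the control and 4766 in the Malat1 library.

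Tardbp, the gene of TDP-43, had a fold of 1.73 (1.61 to 1.85) in the Malat1 library over the control. Hnrnpk, whose protein favours the long Neat1 RNA over the short one, had 3924 and 3960 counts in the control and the Malat1 library and a fold of 1.04 (0.997 to 1.09), and was the lowest of the list. The median of the list, and those of Sfpq and Nono, were below the median gene, and 6 of the 25 were above it. Scaled by the median ratio the median of the list was 0.851. In the Tfrc library over the control 23 of 25 were above 1 and 3 at 2 or more (87.2% and 28.6% of all genes), with a median of 1.43 and a range from 0.863 (Nudt21) to 2.61 (Rbmx). The 3 at 2 or more were Rbmx, Rbm14 at 2.14 and Taf15 at 2.09. Scaled by the median ratio the median was 0.904.

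Malat1 and Neat1 were also set beside other long noncoding RNAs known mainly from the nucleus. Of 14 such genes on the list, 12 were listed in the files and 11 had at least 10 counts in the libraries compared with the control. In the Malat1 library over the control, 11 of 11 were above 1 and 10 were at 2 or more (88.7% and 42.1% of all genes), with a median of 3.87 and a range from 1.99 (Miat) to 8.78 (Nespas). Scaled by the median ratio, 6 were at 2 or more and the median was 2.13. The share of all genes at 2 or more is not given here for that scaling. The folds of Malat1 (5.81) and Neat1 (5.57) fell inside this range. Unlike these, the listed RNAs varied widely in Genome counts, from 1 of 25 for Miat to 163 of 165 for Airn in the Malat1 library. With Ensembl-ID counts alone 8 were at 2 or more (24% of all genes on this count) and the median was 3.20. Airn and Nespas were then left out, with fewer than 10 such counts in the control. There, 44 of 44 Airn counts and 20 of 28 Nespas counts were listed as Genome. Xist, the RNA that silences the inactive X chromosome, had 163, 945 and 1166 counts in the Actb, Malat1 and Tfrc libraries and a fold of 5.99 over the control in the Malat1 library. Its antisense partner Tsix had 119, 744 and 587 counts and a fold of 6.45, but the strand of the reads is not stated, and reads of this pair cannot be told apart where the genes overlap. Meg3, Rian and Mirg, which lie in 1 imprinted cluster, had folds of 5.02, 3.57 and 5.96.

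In the Tfrc library over the control, 11 of 11 were above 1 and 10 at 2 or more (87.2% and 28.6% of all genes), with a median of 2.97 and a range from 1.48 (Miat) to 5.31 (Nespas), which again held both Malat1 (3.84) and Neat1 (2.76). With Ensembl-ID counts alone, and again without Airn and Nespas, 5 were at 2 or more (14.1% of all genes on this count). Scaled by the median ratio, 5 of 11 were at 2 or more and the median was 1.88. For that scaling the share of all genes is again not given. Over all genes annotated as lincRNA or processed transcript, the median fold was 2.60 in the Malat1 library, with 65.7% of 767 genes at 2 or more, and 2.14 in the Tfrc library, with 54.7% of 770 genes. The medians of this class were above those of all genes (1.82 and 1.56), while its lower quartiles, 1.70 and 1.46, were below them.

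**Figure D4:**
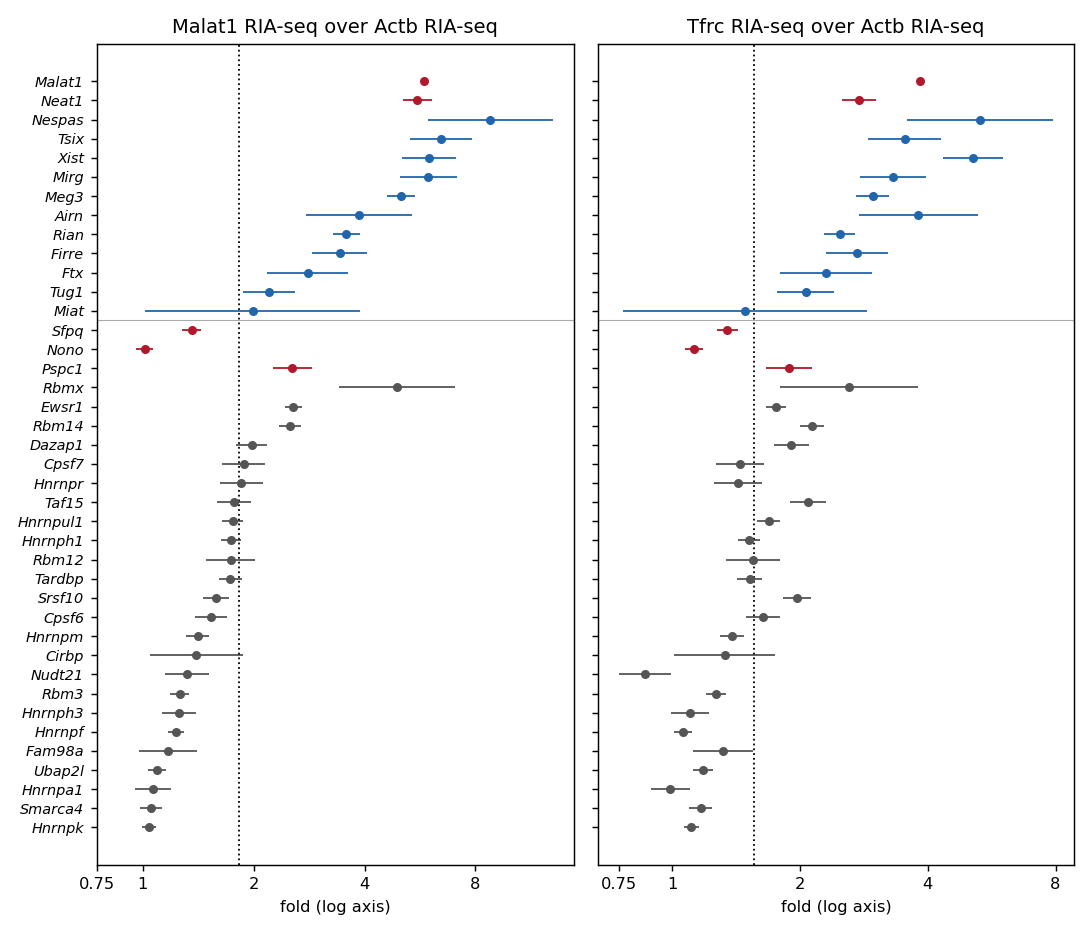
Folds of the Malat1 library over the control and of the Tfrc library over the control (log axis) for the 5 genes, the paraspeckle protein genes without 1 of the 25, and 11 nuclear long noncoding RNAs, in red, grey and blue in that order, with 95% intervals from counting and a dotted line at the median gene. The long noncoding RNAs reach from 1.99 to 8.78 on the Malat1 side and include Malat1 and Neat1 in their range, while most paraspeckle protein genes lie below the median gene at 1.82.

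In the Malat1 library, the tested genes around Malat1 and Neat1 on chromosome 19 had lower folds than both. Within 100 kb of either gene 16 other genes were listed, of which 12 were tested. In the Malat1 library over the control 9 of 12 were above 1 and 4 at 2 or more (88.7% and 42.1% of all genes), with a median of 1.60 and a range from 0.590 to 3.54. In the Tfrc library 11 of 12 were above 1 and 4 at 2 or more (87.2% and 28.6% of all genes), with a median of 1.54 and a range from 0.511 to 3.75, and there Gm20417 (3.75) and Map3k11 (2.78) were at or above Neat1 (2.76). The highest in the Malat1 library was Gm20417, at chr19:5797562-5798549 on the plus strand and within Malat1, with 94, 322 and 493 counts. Its folds were 3.54 and 3.75, and without the strand its reads cannot be told apart from those of Malat1. Frmd8, beyond the 5′ end of Neat1, had folds of 1.60 and 1.38.

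**Figure D5:**
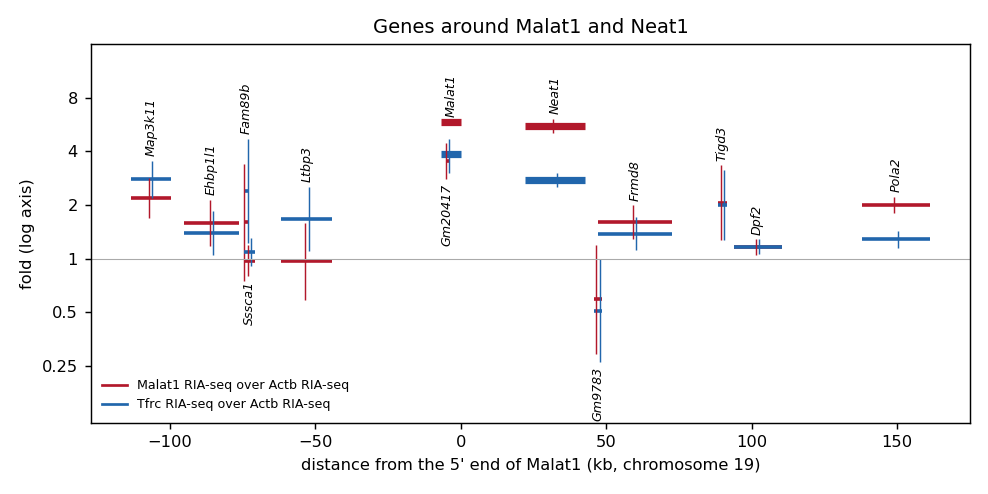
Folds over the control (log axis) of Malat1, Neat1 and tested genes around them, 1 of which is not drawn, each shown as a bar over the span of the gene against the distance in kb from the 5′ end of Malat1, with vertical lines for the 95% interval from counting. Malat1 (5.81) and Neat1 (5.57) stand above the genes drawn around them in the Malat1 library, whereas in the Tfrc library Gm20417 (3.75), which lies within Malat1, and Map3k11 (2.78) are at or above Neat1 (2.76).

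Few genes lay near Malat1 or Neat1 in their folds over the control. Both had folds above 99.0% and 98.8% of genes in the Malat1 library, where a fixed distance can hold few genes. Likeness was measured as the distance between genes in their log2 folds over the control in the Malat1 and Tfrc libraries, over 7664 genes with at least 100 counts in every library, and both folds share the control. Nearest to Neat1 was Ppfia4 at a distance of 0.0198 log2 units, with 129, 687 and 496 counts, followed by Enox1 at 0.157. Nearest to Malat1 was Ppp4r1l-ps at 0.0960, with 107, 572 and 551 counts, followed by Gm10845 at 0.152. Malat1 and Neat1 lay 0.480 from each other. With folds nearer the median gene, Sfpq had 173 genes within 0.1, Nono 125 and Pspc1 151. The minimum of 100 counts also left out genes with high folds and few control counts, such as Nespas with 28. The nearest were Aldh4a1 to Sfpq, Med20 to Nono, and Nop58 to Pspc1.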

How the data were processed

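The authors deposited 1 table of raw read counts per library, whole numbers with no normalization, and 1 library per condition. A gene has up to 2 counts, under its Ensembl identifier and under the name Genome, and genes with no read are not listed. The submitters' processing notes name Bowtie 0.12.7 and the builds mm9 and NCBIM37. The counting tool, the treatment of reads with several matches and the strand are not given in the sources used here.

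Libraries were grouped by the oligonucleotides named in the labels. Both counts of a gene were summed and divided by the library total, and a fold is the ratio of 2 such shares with no pseudocount. Intervals are on the log scale from the counts, and Wilson intervals were used for shares. They cover counting error only and take each read as independent. PCR reads without molecular identifiers are not independent molecules, so that the intervals can be too narrow even for that error. A chi-square test without continuity correction, against a fold in either direction, compared the counts of a gene with all other counts. It compares 2 libraries and not conditions. Its p-values were adjusted by Benjamini-Hochberg across every gene that reached 10 counts in each library compared. A gene listed at 0 was given a limit of 3 counts. The calculation was tested on simulated counts.

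Gene positions and sequences came from NCBIM37 with the GENCODE vM1 annotation, which held 98.6% of the 23854 Ensembl identifiers. Firre, Jpx and Ftx were matched through older symbols in RefSeq as 6720401G13Rik, Enox and B230206F22Rik, and Kcnq1ot1 and Peg13 had no row. The genes named are the 5 genes, those of the lists, annotated genes within 100 kb of Malat1 or Neat1, near copies, and the genes nearest in pattern. Values of 2 of these genes are not reported here. The genes and lists were chosen with earlier results of these data known. Alternatives were other scalings, a pseudocount of 1, each kind of row alone, Fisher's exact test and other count minimums. Python 3.11.15, NumPy 2.4.6, SciPy 1.17.1 and pandas 2.3.3 were used.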

Additional observations from a re-analysis of the deposited data

How the results depend on the processing

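With 1 library per condition no value has a replicate error, and the intervals state counting error alone. No paired analysis was possible because there was 1 library per condition and the labels carry no replicate numbers. Of the values recomputed under the alternatives, 167 kept their direction and their side of the threshold or moved little, 25 reversed, 28 moved, 11 weakened and 3 became stronger; where no reason follows from how an alternative is built, the cause was not tested. On summed counts, the folds of Malat1, Neat1 and Pspc1 over the control stayed above 1 under every scaling.

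Other scalings lowered the folds as a whole, the median ratio by a factor of 0.550 for Malat1 over Actb, 0.633 for Tfrc over Actb and 0.870 for Malat1 over Tfrc (log2 shifts of -0.86, -0.66 and -0.20). Under it Sfpq came to 0.747, 0.854 and 0.875 in these comparisons, and Nono to 0.557 and 0.711 over the control. The median of the paraspeckle protein list came to 0.851, 0.904 and 0.937, with 1 and 0 genes at 2 or more over the control, and that of the nuclear long noncoding RNA list to 2.13 and 1.88, with 6 and 5 genes at 2 or more. The share of all genes at 2 or more under this scaling is not given here, so these numbers of genes cannot be read against it. Scaled by the 75th percentile, Malat1 over Actb gave 0.852 for Sfpq and 0.635 for Nono, Tfrc over Actb gave 0.906 for Nono, and Malat1 over Tfrc gave 0.782 for Sfpq and 1.05 for Pspc1. Without the 10 most counted genes of any library, Sfpq came to 0.828, 0.949 and 0.872, and Nono to 0.617 and 0.790 over the control. Without the 3 targeted genes Nono came to 0.947 in the Malat1 library and 1.05 in the Tfrc library over the control.

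With Ensembl-ID counts alone, Nono was at 0.997 for Malat1 over Actb, the ratio of Sfpq to Nono was 0.873 in the Malat1 library and 0.748 in the Tfrc library, and the ratio of Pspc1 to Nono was 0.104, 0.162 and 0.114 in the Actb, Malat1 and Tfrc libraries. For Tfrc over Actb, 1 of the 25 paraspeckle protein genes and 5 nuclear long noncoding RNAs were then at 2 or more. Of all 13391 genes tested on this count, 14.1% were. Of the 11 long noncoding RNAs tested on summed counts, Airn and Nespas were left out here, with too few Ensembl-ID counts in the control. Ensembl-ID counts over their own total gave 1.17 for Nono for Malat1 over Actb and 1.10 for Sfpq for Malat1 over Tfrc.

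Genome counts alone gave 3.28 for Nono for Malat1 over Actb, 1.29 for Malat1 and 1.43 for Neat1 for Tfrc over Actb, and 0.745 for Sfpq and 0.848 for Nono for Malat1 over Tfrc. The ratio of Neat1 to Malat1 was then 0.400, 0.455 and 0.444 in the Actb, Malat1 and Tfrc libraries, that of Sfpq to Nono 6.71, 5.11 and 5.82, and that of Pspc1 to Nono 4.59, 8.41 and 5.02; the values for Malat1 and Neat1 rest on at most 22 counts. Genome counts over the Genome total gave, for Malat1 over Actb, 1.25 for Malat1, 1.42 for Neat1, 0.690 for Sfpq and 0.905 for Nono. For Tfrc over Actb they gave 0.448 for Malat1, 0.498 for Neat1, 1.17 for Sfpq and 1.35 for Nono, and for Malat1 over Tfrc 2.86 for Neat1, 0.591 for Sfpq and 1.13 for Pspc1.

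With other count minimums the number of genes at 2 or more moved from 6133 to 3770 (at least 50 counts) and 9523 (above 0) for Malat1 over Actb, from 4196 to 2109 and 7593 for Tfrc over Actb, and from 714 to 284 and 2032 for Malat1 over Tfrc.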

Other observations

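Set directly against each other, the Malat1 and Tfrc libraries gave no fold of 2 or more in the other gene groups. The median of all genes was 1.15. Of the 25 paraspeckle protein genes, 17 were above 1 and 0 at 2 or more (67.9% and 4.35% of all genes), with a median fold of 1.08. Of 12 nuclear long noncoding RNAs, 11 were above 1 and 0 at 2 or more, with a median of 1.29. Tsix (1.83), Mirg (1.80), Meg3 (1.69) and Nespas (1.65) were above Malat1 (1.51), and the rest of that list were below it. Neat1, at 2.02, was above the highest of either group, at 1.87 and 1.83. These counts are of 1 library per condition, and no test of conditions could be made.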
